A study of Mus musculus with 1152 samples.

Results

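The Ptn-Anxa3-Stc1 class was a group of lymphatic endothelial cells (LECs) of the nasopharyngeal lymphatic plexus (NPLP), a mesh of lymphatic vessels in the mucosa at the back of the nose. Its members were chosen by gene levels. Each gene was turned into a z-score over all cells, the mean z-score of 5 genes (Ptn, Anxa3, Stc1, Rbp7 and Cd34) made the class score, and a cell was a member where this score was higher than those of 5 other classes. Members made up 17.4% of the cells analysed, with an exact (Clopper-Pearson) 95% interval from 14.6% to 20.5%, and 50 of them shared 1 cluster while 64 lay outside it. Intervals cover counting error only. The other cells had their highest score in a precollecting-like (22.9% of all cells), Ptx3+ capillary-like (21.2%), Fndc1-type (17.8%), upstream-valve-like (11.1%, 73 cells) or downstream-valve-like (63 cells) class. All of them came from aged C57BL/6 mice, were sorted as CD31+ and PDPN+, and were sequenced by Smart-seq3, a plate method that reads whole transcripts. The labels put all cells in 1 group and name no animal, so they were treated as 1 pool. There was no replicate, no second group to compare with and no test. Differences are given as sizes with the spread between cells.

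LECs line lymphatic vessels and keep their identity through the transcription factor PROX1. Capillary LECs take up fluid and cells and carry the hyaluronan receptor LYVE1, whereas cells of the vessels that collect lymph, and of their valves, usually carry less of it. Among the genes that chose the class, Ptn encodes pleiotrophin, a secreted growth factor that binds heparan sulfate, and Stc1 encodes stanniocalcin, a secreted glycoprotein. Anxa3 encodes an annexin, which binds membrane phospholipids in the presence of calcium. Rbp7 encodes a cytoplasmic retinoid-binding protein, and Cd34 a sialomucin best known on blood vessels and blood progenitors.

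The 250 bases before the annotated start were read for genes that chose the class and for Igfbp5 and Ackr3, the genes outside the rule with the largest difference in mean level, so that their upstream sequence can be set beside their levels. Of 7 genes looked for, 5 had an entry in the RefSeq promoter table (GRCm38.p6). Those of Ptn, Rbp7, Igfbp5 and Ackr3 are given 5′ to 3′. Capitals mark the ETS core GGAAG. They also mark the hypoxia core, which is spelled ACGTG, and the TATA box. Matches on either strand were counted.
Ptn, chr6:36810180-36810429, minus strand: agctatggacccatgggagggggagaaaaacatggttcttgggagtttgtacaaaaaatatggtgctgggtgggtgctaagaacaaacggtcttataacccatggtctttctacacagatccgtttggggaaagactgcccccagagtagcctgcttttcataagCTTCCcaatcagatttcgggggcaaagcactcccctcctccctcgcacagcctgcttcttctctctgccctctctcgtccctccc
Rbp7, chr4:149454969-149455218, minus strand: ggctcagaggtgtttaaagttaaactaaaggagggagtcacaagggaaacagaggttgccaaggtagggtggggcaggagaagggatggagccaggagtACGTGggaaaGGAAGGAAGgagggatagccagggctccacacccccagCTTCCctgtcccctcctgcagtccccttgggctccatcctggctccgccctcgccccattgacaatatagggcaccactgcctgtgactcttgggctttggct
Igfbp5, chr1:72874866-72875115, minus strand: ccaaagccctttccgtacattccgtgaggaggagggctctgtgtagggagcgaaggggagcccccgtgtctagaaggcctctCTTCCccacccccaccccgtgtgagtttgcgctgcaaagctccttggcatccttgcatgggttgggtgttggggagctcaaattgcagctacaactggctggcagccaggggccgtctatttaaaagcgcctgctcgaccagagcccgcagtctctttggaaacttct
Ackr3, chr1:90203730-90203979, plus strand: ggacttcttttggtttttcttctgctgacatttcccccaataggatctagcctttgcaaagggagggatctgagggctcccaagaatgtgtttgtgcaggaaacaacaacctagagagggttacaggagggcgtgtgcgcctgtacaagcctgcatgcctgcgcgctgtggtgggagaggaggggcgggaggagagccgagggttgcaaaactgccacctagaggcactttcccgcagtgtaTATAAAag
The ETS core stood in the windows of Ptn, Rbp7, Igfbp5 and, not printed, Cd34, and in 64.1% of all 32851 promoters of this length, so a match says little about one gene. Rbp7 had 3 such matches, of which 2 overlapped, and also ACGTG, which 16.6% of promoters held. The Ackr3 window had the letters of the TATA box, TATAAA, held by 12.4% of promoters, and no ETS core. These letters lay at the very end of the window, next to the annotated start. The SOX core AACAAT had no match in these windows and stood in 9.42% of all promoters. The GATA core had none either, and its letters AGATAA stood in 9.99%. For the retinoid receptor site the letters were AGGTCA, with no match here and a share of 14% among all promoters. Anxa3 (chr5:96793339-96845966) and Stc1 (chr14:69029238-69041804, GRCm38) are named only. By the gene coordinates that gave these positions, the windows of Ptn, Rbp7, Igfbp5 and Cd34 overlap the first bases of the gene.

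The levels of the 5 genes that chose the class are a description of that choice. All levels are means of the natural log of 1 plus reads per 10000, with the SD over cells. Ptn had a mean of 1.02 ± 0.98 in members, with single cells from 0 over a median of 0.86 to 3.51, and was detected in 75.4% of them. The other classes had Ptn means from 0.038 in the Ptx3+ capillary-like to 0.45 in the Fndc1-type class. The paper marked its Ptx3- capillary LECs by Fndc1 and Ptn together, whereas the rule used here placed these genes in separate classes. Cd34 was at 0.90 ± 0.72 in the members and was detected in 78.9% of them, against 0.11 to 0.27 in the other classes. Anxa3 (0.62 ± 0.74), Stc1 (0.62 ± 0.72) and Rbp7 (0.58 ± 0.75) were detected in 53.5%, 62.3% and 50.9% of members. Cells at 0 were thus common in the class for each of these genes, and its ranges overlapped those of every other class.

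**Figure D1:**
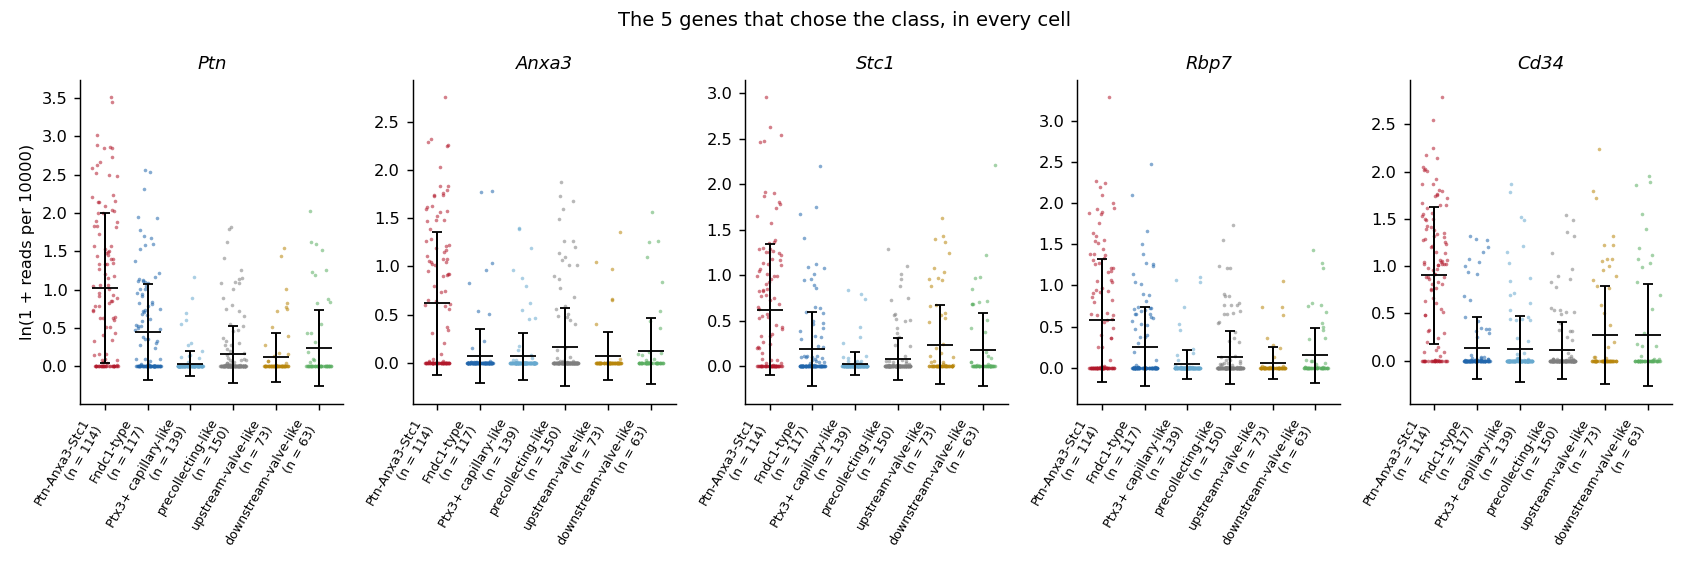
Natural log of 1 plus reads per 10000 (y axis) of the 5 genes that chose the class, by class (x axis), 1 point per cell, with the mean and SD in black. The class means of Ptn (1.02) and Cd34 (0.90) stand above those of the other classes, while many members are at 0 for each gene.

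Few members carried all of these genes together. Of the members, 14 had all 5 detected, 37 had 4, 33 had 3, 19 had 2 and 11 had 1, whereas 28.8% of the other cells had none and 1 cell had all 5. Across all cells the Spearman rho between pairs of these genes ran from 0.04 to 0.33, with a median of 0.18 over 10 pairs, and it was highest for Ptn with Rbp7. Within the members it ran from -0.35, for Anxa3 with Stc1, to 0.27. These cells share a pool and were picked on the sum of the same genes, so the values describe the choice and no more. A member could therefore be high in Anxa3 or in Stc1 with the other low.

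The edge of the class was not sharp. The margin, the class score less the best other score, had a median of 0.49 in members and ran from 0.0013 to 2.74. It was below 0.25 in 34 members and at least 1 in 33, and 41 other cells lay within 0.25 below the edge. The 10 members within 0.1 of it had a mean Ptn of 0.57 and Anxa3 of 0.61, and the 12 cells within 0.1 outside had 0.48 and 0.061. The class with the second score was downstream-valve-like for 28 members, upstream-valve-like for 27, Fndc1-type for 23, precollecting-like for 20 and Ptx3+ capillary-like for 16.

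**Figure D2:**
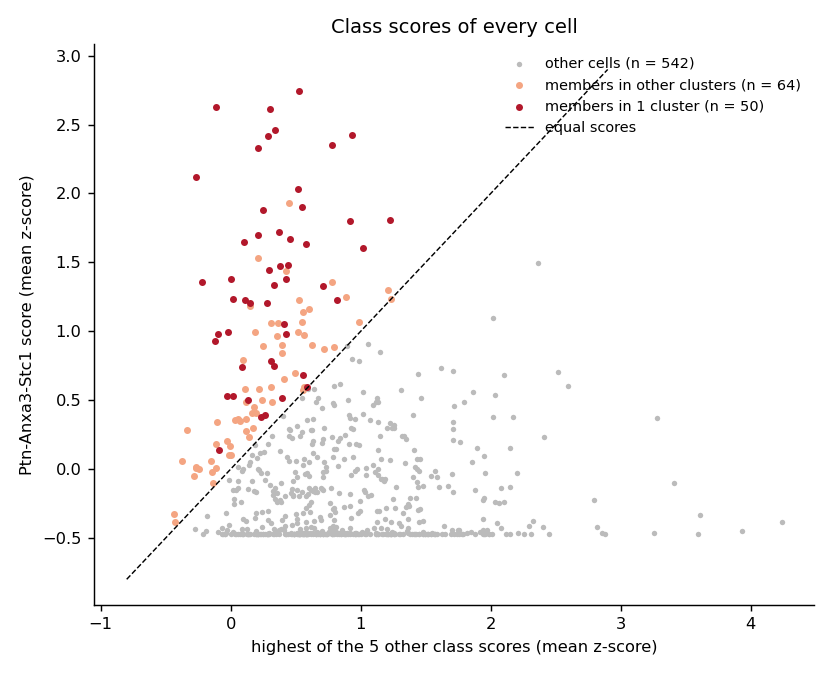
Score of the Ptn-Anxa3-Stc1 class (y axis) against the highest of the 5 other class scores (x axis), both as mean z-scores, 1 point per cell, with the line of equal scores. Members lie above the line, 34 of them within 0.25 of it, and members that shared 1 cluster are mostly those with the higher scores.

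Members were LECs by their markers, with exceptions. Of 15 lymphatic identity genes, all were detected in the class, and their sum per cell had a median of 114.6 reads per 10000 (37.3 to 252.5) in members and 134.8 (36.1 to 363.5) in the other cells. Prox1 was at 1.29 ± 0.72 in members and 1.53 in the other cells, with detection in 94.7% and 97.6%. Flt4, the receptor for VEGF-C, was at 2.53 and 2.47, Pdpn, the podoplanin of the sort, at 1.33 and 1.32, and Mmrn1, a multimerin typical of LECs, at 3.25 and 3.60. Of 20 blood endothelial genes, several are also part of LECs, and the summed medians were 49.6 in members and 53 in the other cells. Flt1, Nrp1, Sox17 and Ly6c1, which mark blood endothelium, were each detected in at most 1.75% of members, while over the whole list the median detection was 52.2% of members and 44.5% of the other cells.

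Markers of other cell types were near 0 in most members, but not in all. The median sum over haematopoietic, epithelial, mural and glial genes was 0 in members, and that over fibroblast genes was 0.037 reads per 10000. At more than 10 reads per 10000 for 1 of these lists, leaving out Kcnj8, which LECs also had, 5 members (4.39%, interval from 1.44% to 9.94%) and 10 other cells (1.85%, from 0.888% to 3.37%) stood out. On that linear scale, one member had 134.2 of Acta2, a smooth muscle actin, with Mmrn1 at 0.88 and Pecam1 at 0.49. Another had 85.4 of Dcn and 31.9 of Dpt, matrix proteins of fibroblasts, with Mmrn1 at 0.42 and Prox1 at 0.10. Both carried the label of sorted LECs, and their markers went against it. The other 3 had Dcn between 15.9 and 49.3 along with Mmrn1 between 15.9 and 28.8. Dcn was at 0.49 ± 0.88 in members and 0.21 in the other cells, and its ratio of linear means was 4.03, or 2.0 without those 15 cells. The downstream-valve-like class had nearly the same Dcn mean (0.45). Without these cells 4.45% of genes were higher in the class and 4.59% lower, by the limit given below, beside 4.31% and 4.46% with them.

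The class did not differ widely from the other cells in depth. Median reads per cell were 113448 in members and 156972 in the other cells, the median number of detected genes 4163.5 and 3908, and the median mitochondrial share 1.40% and 1.45%. Across cells the class score had a Spearman rho of 0.13 with the number of detected genes and -0.020 with the reads. Members were found in each of the 12 runs of 96 cell numbers, at shares from 8.70% to 25.4%, and each run's interval held the overall share. Xist was detected in 94.7% of members and 92.4% of the other cells. No member had a read from a Y-linked gene (a floor of 3 counts of the total, 2.63%, with an exact upper limit of 3.18%). Such a read was found in 4 of the other cells, each of which also had Xist. The methods state that LECs came from mice of both sexes, whereas no cell analysed here had a Y-linked read without Xist.

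Outside the genes that chose any class, Igfbp5, Ackr3 and Thbd had the largest positive differences in mean natural log value between members and the other cells, and Cyp4b1 the largest negative one. A gene was called higher or lower when its linear mean, with 0.1 reads per 10000 added to both groups, differed by at least 1.5 times, among genes detected in at least 10% of members or of the other cells. Of 10001 such genes, 4.31% were higher in the class and 4.46% were lower than in the other cells. With 1 read per 10000 added in place of 0.1, 32 and 24 genes were called, so most of these genes were of low level. Genes named below were chosen on these same differences, among calls detected in at least 25% of cells.

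Igfbp5, which binds insulin-like growth factors and matrix, differed most in mean natural log value. Its median was 3.01 in members (0 to 4.59) and 0.82 in the other cells (0 to 4.95). The means were 2.62 ± 1.30 and 1.23 ± 1.22, and the ratio of linear means was 3.43. The ranges overlapped in full, and the downstream-valve-like class (2.14) came next in mean level. At 20000 reads per cell, a fixed depth to which cells were thinned, Igfbp5 was detected in 92.8% of members (interval from 85.7% to 97%) and in 63.5% of the other cells (59% to 67.8%).

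Ackr3, an atypical receptor that scavenges CXCL12 and adrenomedullin, had a median of 2.29 in members and 0.71 in the other cells, with means of 2.04 ± 1.21 and 1.07 ± 1.13 and a ratio of 2.57. The Fndc1-type class was almost as high (1.95 ± 1.13), a gap well within the spread between cells, and the Ptx3+ capillary-like class was at 0.31. Thbd encodes thrombomodulin, which binds thrombin and turns it towards protein C. Its mean was 2.01 ± 0.89 in members and 1.24 ± 0.87 in the other cells, with a ratio of 2.31, and the 5 other class means ran from 1.01 to 1.63. F2r, a thrombin receptor, had a ratio of 1.60.

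Sdc1, a heparan sulfate proteoglycan of the cell surface to which pleiotrophin can bind, was at 0.98 ± 0.87 against 0.44 ± 0.65, a ratio of 2.60. After thinning it was detected in 67% of members and 37.8% of the other cells, and the Fndc1-type class (0.81) came next. Postn, a matricellular protein, had a ratio of 2.52, and Slco2a1, a prostaglandin transporter, one of 2.34, though the precollecting-like class had the same Slco2a1 level (0.80) as the members (0.81). Ratios were 2.18 for the adhesion molecule L1cam, 2.01 for the metalloprotease Adam15, 1.99 for the laminin receptor Bcam, 1.90 for Adamtsl1 and 1.51 for Fstl1. Podxl, a sialomucin related to CD34, was at 1.64 against 1.15, and Tek, the receptor of angiopoietins, at 1.30 against 0.95, with ratios of 1.73 and 1.54.

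Anxa1, like Anxa3 an annexin, was at 1.15 ± 0.88 in members and 0.63 ± 0.77 in the other cells, a ratio of 2.0. Pmp22, a membrane protein also found in myelin, had a ratio of 2.49, Crip1 of 1.82, the glucocorticoid-induced Tsc22d3 of 1.80 and the stress protein Nupr1 of 1.79. Pdlim1, Ehd1, Grina, Lmna, Tubb2a and Atp9a had ratios from 1.51 to 1.63. Of these genes the upstream-valve-like class was not far below in Anxa1 (0.93).

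Of the genes lower in the class, several were highest in the Fndc1-type or the Ptx3+ capillary-like class. Cyp4b1, a cytochrome P450, was at 0.54 ± 0.70 in members and 1.03 ± 1.18 in the other cells, a ratio of 0.26, and its Fndc1-type mean was 2.19. F8, coagulation factor VIII, was at 0.14 against 0.50 (ratio 0.28), and was highest in the Ptx3+ capillary-like class (1.05). Lyve1 was at 1.68 ± 1.21 in members and 2.02 ± 1.41 in the other cells, a ratio of 0.61. The members lay between the Ptx3+ capillary-like (2.58) and Fndc1-type (3.22) classes above and the precollecting-like (1.11) and upstream-valve-like (1.22) classes below, and the downstream-valve-like class was at 1.60. Detection of Lyve1 at 20000 reads per cell was much alike, 83.5% of members and 80.3% of the other cells, so its gap was in level rather than in presence.

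Adm, the peptide adrenomedullin, had a ratio of 0.33, the guidance receptor Robo4 of 0.46, Thbs1 (thrombospondin) of 0.47, Tnc (tenascin) of 0.46 and Tgfbr3, a co-receptor for TGFβ, of 0.55. Scn3a, a sodium channel gene, had a ratio of 0.37. Gmfg, an actin regulator, had a ratio of 0.30. The selenium carrier Selenop was at 2.97 in members and 3.41 in the other cells, a ratio of 0.61. Igfbp4, Sult1a1, Klf6, Sh3tc1, Col18a1, Slc39a4, Sept1 and Trp53i11 had ratios from 0.44 to 0.66.

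**Figure D3:**
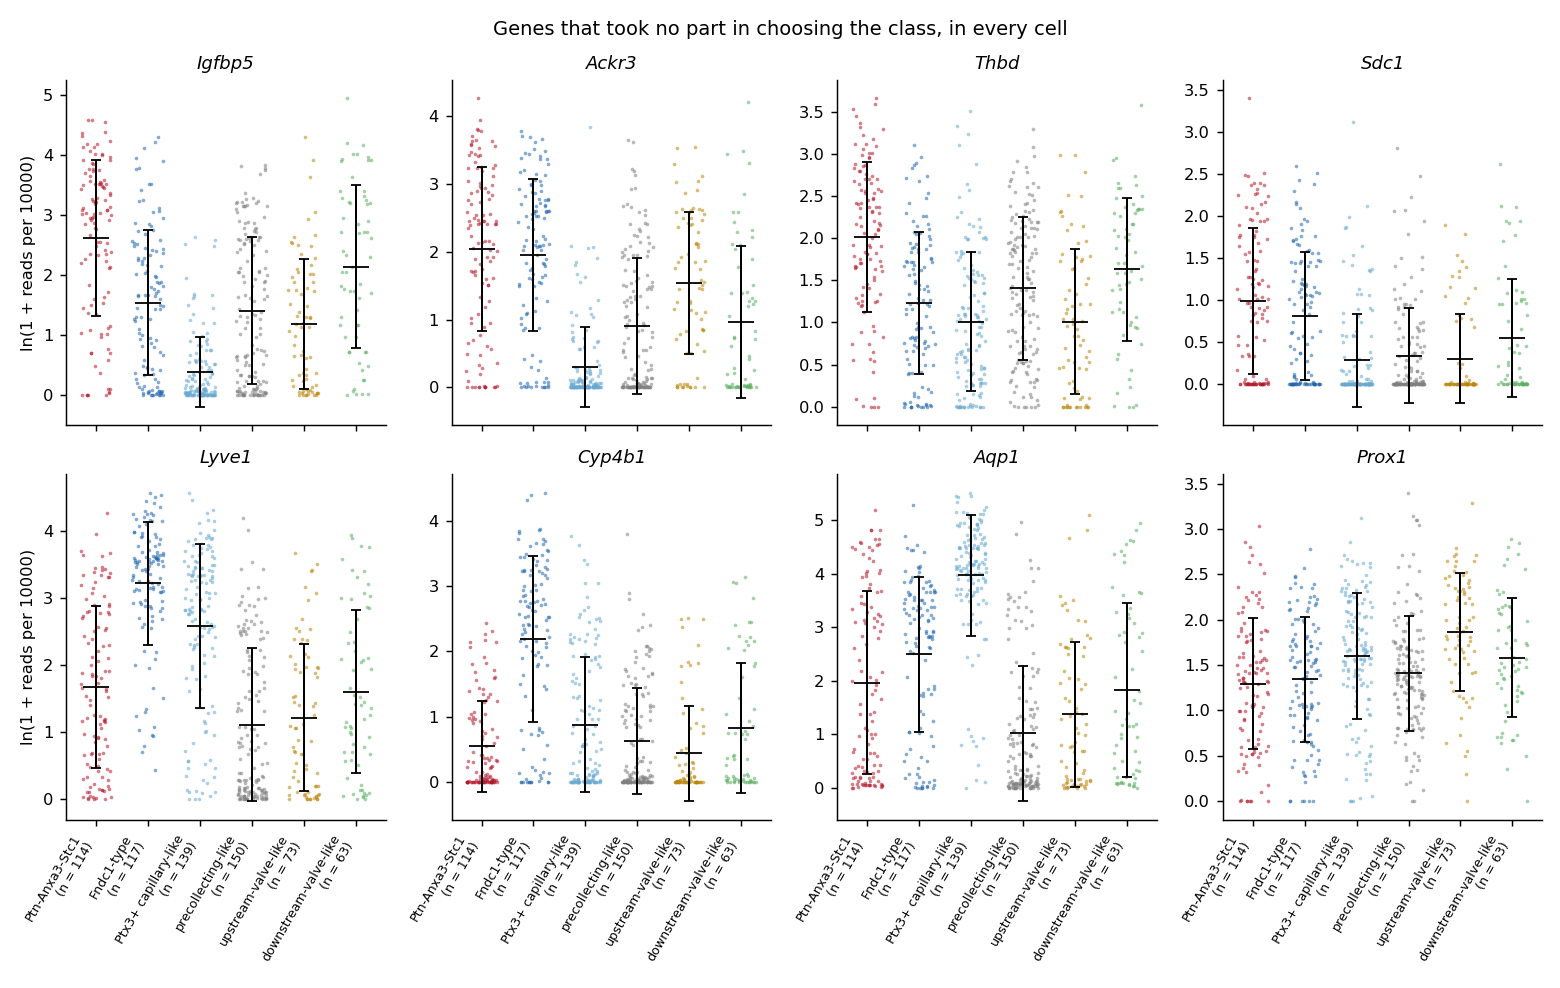
Natural log of 1 plus reads per 10000 (y axis) of 8 genes that took no part in choosing the class, by class (x axis), 1 point per cell, with the mean and SD in black. Igfbp5 (2.62) and Thbd (2.01) have their highest class mean in the Ptn-Anxa3-Stc1 class, Ackr3 is shared with the Fndc1-type class, and Lyve1, Cyp4b1 and Aqp1 are highest in the Fndc1-type or the Ptx3+ capillary-like class.

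The genes that followed the class score across all cells were mostly among those just named. The Spearman rho was 0.53 for Igfbp5, 0.43 for Ackr3, 0.37 for Podxl, 0.37 for Thbd, 0.34 for Tagln2, 0.32 for Htr2b, 0.32 for Sdc1 and 0.31 for Pmp22, against a median of 0.034 over 8810 genes. All cells share 1 pool and differ in depth, so these are descriptions. Htr2b, a serotonin receptor that was no member of the list above, was at 0.65 in the class and 0.74 in the Fndc1-type class.

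Partners of the genes that chose the class are set beside the shares over all genes tested, 4.31% higher and 4.46% lower. Of 9 genes tested among pleiotrophin and midkine with their receptors, Sdc1 and Itgb3 (ratio 1.61), an integrin subunit, were higher and Sdc3 (0.52) and Ptprs (0.66), a receptor phosphatase, were lower, so members of this list went both ways, and the median log2 ratio was 0.08, beside 0.00 over all genes tested. Ptprz1, the best known pleiotrophin receptor, was listed at 0 in every cell. Of 16 genes tested of the stanniocalcin, pappalysin and hypoxia list, none was higher, Adm and Stc2 (0.65) were lower, and the median was -0.17. Vegfa was at 0.086 in members and 0.085 in the other cells. Of 9 retinoid genes tested, Rdh10 (1.62) and the receptor Rarb (1.54) were higher, Rbp2 (0.48) was lower, and the median was 0.03.

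Annexin and S100 genes, whose proteins mostly bind calcium, had the highest median of the lists with at least 9 genes tested, 0.39 over 13. Anxa1 and S100a1 (1.52) were called higher and none lower, with S100a10 (1.46) and S100a13 (1.36) short of the limit. Beside 4.31% higher and 4.46% lower over all genes, among insulin-like growth factor genes 4 of 9 were higher (Igfbp5, Igfbp6 at 3.67, Insr at 1.61 and Igf1 at 1.54) and 3 were lower (Igf1r at 0.50, Igfbp7 at 0.62 and Igfbp4 at 0.63). Both directions thus met in 1 family, and Igfbp6 was detected in 10.5% of members only. Of 14 chemokine and cytokine genes, 5 were higher, among them Ackr3, Ackr4 (2.28) and Csf1 (1.5), and 2 were lower, Cxcl12 (0.51) and Tnfsf10 (0.60). Of 11 Notch and Wnt genes, 4 were higher (Dll1, Hey1, Jag1 and Wnt5b, at 1.54 to 1.73) and none lower, beside the same shares of 4.31% and 4.46%.

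BMP and TGFβ genes went both ways, 3 of 16 lower and 2 higher (4.46% and 4.31% over all genes), with a median of -0.26. Tgfbr3, Id2 (0.41) and Bmp6 (0.46) were lower, and Acvrl1, the receptor ALK1, and Fstl1, an extracellular binder, were both higher at 1.51. Of 26 interferon genes, none was higher (4.31% over all genes) and 5 were lower (4.46% over all genes), namely Rsad2 at 0.39, Ifit2 at 0.44, Ifit3 at 0.55, Cmpk2 at 0.59 and Gbp2 at 0.64, with a median of -0.23. Averaged within the runs of cell numbers, on the scale of mean natural log values turned to log2, the median was -0.040. That scale is not the one of -0.23, so these medians do not show an effect of runs. Without averaging, the median difference in mean natural log value was already small, at -0.021 before any turn to log2. None of 9 genes of ageing interest was called: Ifitm3 was at 4.28 in members and 4.18 in the other cells, Il33 at 0.47 and 0.60, and B2m at 3.43 and 3.48. Capillary fatty acid genes (10 tested, median -0.12) had Fabp4 higher (1.51), Timp4 (0.50) and Cd36 (0.42) lower.

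Lists of vessel type and of handling were close to level, beside 4.31% higher and 4.46% lower over all genes tested. Of 15 lymphatic identity genes Tek was higher and Lyve1 lower (median 0.03), and of 13 blood endothelial genes Podxl was higher and none lower (median 0.00). Sialomucin and adhesion genes (10 tested) had Podxl higher, other valve and precollector genes (16) had Sema3a (1.66) higher, and matrix genes (21) had Mgp (1.92) higher and Col18a1 lower. In the VEGF and angiopoietin list (13) Tek was higher and Adm lower. Of 20 immediate-early and dissociation genes, Hspa1b was higher (1.96) and Ier3 lower (0.63), with a median of -0.11. Among cycling genes only Pcna was tested, with no call. The 3 haematopoietic genes tested, Cd68 (0.62), Fcer1g (0.66) and Cd14 (0.67), were lower, with a median of -0.59. Haematopoietic genes were rarely detected, with a median over the whole list of 1.75% of members and 1.48% of the other cells.

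The Fndc1-type class was the nearest in Ptn, a gene of the rule, and in Ackr3, and the members were set against it directly. By nearest neighbours, described below, neither it nor the Ptx3+ capillary-like class was nearest. They made up 10.8% and 7.95% of the members' neighbours, less than their shares of all cells (17.8% and 21.2%). The precollecting-like and valve-like classes were not set against the members directly. Of 10205 genes tested against the Fndc1-type class, 9.68% were higher in members and 7.96% lower. Sparc, a matricellular protein, was at 1.32 ± 1.04 in members and 0.30 ± 0.65 in Fndc1-type cells, a ratio of 4.93. Ratios were 4.41 for Bcam, 3.73 for Sbno2, 3.57 for Adamts1, 3.30 for Tmem176b, 2.74 for Igfbp5, 2.69 for Nupr1, 2.43 for Thbd, 2.21 for Grina and 2.17 for the MHC gene H2-Q6. On the lower side stood Cyp4b1 (0.091), Gmfg (0.21), Tgfbi (0.22), Lyve1 (0.29), Ucp2 (0.31), Col18a1 (0.39), Tnxb (0.43), Gpihbp1 (0.47), Adgrg3 (0.48) and Mmrn1 (0.51). Igfbp5, Thbd, Bcam, Nupr1, Grina, Cyp4b1, Gmfg, Lyve1 and Col18a1 also passed the limit against all other cells. Some others were close to level with all other cells. H2-Q6 had a mean of 1.38 in members and 1.39 in all other cells, and Sbno2 of 1.34 and 1.30. Tnxb (0.81 and 0.74), Ucp2 (0.95 and 0.87) and Adgrg3 (1.18 and 1.17) were not below all other cells in mean natural log value. Lyve1 was at 1.68 in members against 3.22 ± 0.92 in Fndc1-type cells, and Mmrn1 at 3.25 against 3.98 ± 0.52. Of 15 lymphatic identity genes 3 were lower (Lyve1, Mmrn1 and Thy1), with a median log2 ratio of -0.24 beside 0.02 over all genes tested. Of 13 blood endothelial genes 4 were higher (Selp, Plvap, Vwf and Cd93, at 1.94 to 3.45), with a median of 0.38. Of 20 immediate-early and dissociation genes 7 were higher than in Fndc1-type cells and none lower, among them Nr4a1 (2.38), Dnajb1 (2.23), Hspa1b (2.13) and Socs3 (1.80), with a median of 0.23. Dcn, the 1 fibroblast gene tested, had a ratio of 7.85. Its linear mean in members was 2.45 per 10000, and 0.93 without the cells with markers of other cell types. The ratio to Fndc1-type cells was not taken again without them. The part of handling and of fibroblast RNA in the differences from Fndc1-type cells was not tested. Nos3, the endothelial nitric oxide synthase, was at 0.64 in members and 0.21 in Fndc1-type cells.

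Against the Ptx3+ capillary-like class the gap was wider in single genes. Of 10161 genes tested, 9.9% were higher in members and 12.2% lower. Igfbp5 was at 2.62 against 0.38 ± 0.58, a ratio of 24.4, Ackr3 at 2.04 against 0.31 ± 0.59, a ratio of 12.7, and Crip1 at 1.42 against 0.29, a ratio of 10.5. Pmp22 had a ratio of 8.13, Serpine2, an inhibitor of thrombin, 4.81, the peptide Nts 4.0, Tagln2 3.55, Vim, the filament vimentin, 3.49, Clca3a1 3.27 and Thbd 3.0. The water channel Aqp1 was at 1.96 ± 1.71 in members and 3.97 ± 1.14 in Ptx3+ capillary-like cells. Its spread in members was wide, with cells near 0 and cells above 5. Ratios were 0.13 for F8, 0.18 for Scn3a, 0.22 for Thbs1, 0.26 for Robo4, 0.31 for Igfbp4 and for Aqp1, 0.32 for Ablim3, 0.35 for Trp53i11, 0.39 for Selenop and 0.45 for Lyve1. Of 13 annexin and S100 genes 9 were higher and none lower (median 0.75, beside -0.02 over all genes tested), with Anxa1 at 3.03, S100a6 at 2.57 and S100a10 at 2.10. Of 16 BMP and TGFβ genes 7 were lower, among them Id2 (0.24), Bmp6 (0.28), Tgfbr3 (0.42) and Eng (0.44), and 2 were higher, with a median of -0.55. Of 13 blood endothelial genes 5 were higher, among them Esam (5.15) and Podxl (3.60), and 5 were lower, among them Aqp1, Selp (0.26) and Eng, with a median of -0.21. Of 20 immediate-early and dissociation genes 3 were higher and none lower, with a median of 0.16.

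To see whether members lay together without the genes of the rule, nearest neighbours were taken on 15 principal components of variable genes with all 31 rule genes left out. Of the 15 nearest cells of a member, 41.3% on average were members, whereas they were 12.8% for the other cells. The median was 40% for members, with a range from 0% to 86.7%, and 2 members had none. Of the members' neighbours 21.6% were precollecting-like, 10.8% Fndc1-type, 10.5% upstream-valve-like, 7.95% Ptx3+ capillary-like and 7.84% downstream-valve-like. The precollecting-like share was close to that class's share of all cells (22.9%). The Fndc1-type and Ptx3+ capillary-like shares were below those classes' shares of all cells (17.8% and 21.2%). The rule genes and the rest were measured in the same cells and pool, so this is no independent sample.

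Clustering by the study's steps, rule genes included, gave 6 clusters, and 1 cluster of 64 cells held 50 of the members (43.9%), which made 78.1% of it. The other 64 members were scattered, with 19 in each of the 2 largest clusters, 13 in the cluster of most upstream-valve-like cells, 11 in that of most Fndc1-type cells and 2 in the smallest. At a higher resolution (1.5) a cluster of 76 cells held 54 members. Without regression, or with 3000 variable genes, no cluster was mostly members: those that held the most were 24.7% and 28.8% members. A cluster made up mostly of members was therefore found under some settings and not under others. Where it was found, more members lay outside it than in it.

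**Figure D4:**
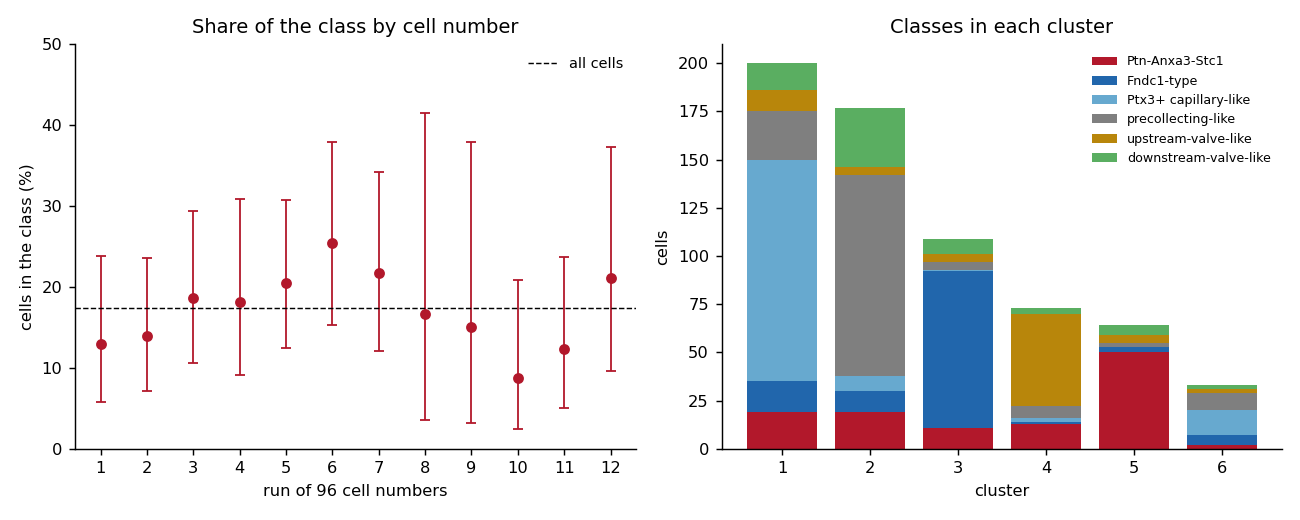
Left, share of cells in the class (y axis, percent) in each run of 96 cell numbers (x axis), with exact 95% intervals and the overall share as a dashed line. Right, number of cells (y axis) of each class in each of 6 clusters (x axis). Shares run from 8.70% to 25.4%, and cluster 5 holds 50 members among its 64 cells.

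The clustered members and the scattered ones differed in how far they carried the pattern. Clustered members had a median margin of 1.05 and scattered ones 0.28, with similar depth (median 111728 and 113448 reads) and 4664 against 3903.5 detected genes. All 5 class genes were detected in 11 of the 50 and in 3 of the 64. Ptn was at 1.51 ± 0.99 and 0.64 ± 0.79, Cd34 at 1.09 and 0.76, and Stc1 at 0.75 and 0.51. Igfbp5 was at 3.21 ± 1.09 in clustered members, 2.16 ± 1.27 in scattered members and 1.23 in the other cells, and Thbd at 2.39, 1.71 and 1.24. For both genes the scattered members thus lay between.

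Other genes belonged mainly to the clustered members. Lyve1 was at 1.23 ± 1.05 in clustered members, 2.03 ± 1.22 in scattered members and 2.02 in the other cells, so on this scale its lower class mean came from the clustered ones. Atp9a was at 1.42, 0.59 and 0.57, and Bcam at 1.32, 0.66 and 0.54. Of the 25 genes named higher, 24 passed the 1.5-fold limit in the clustered members and 15 in the scattered ones, and on the mean natural log scale all 25 were above the other cells in both. On the linear scale Atp9a was below them in the scattered members (ratio 0.81). Of the 20 named lower, 20 and 11 passed it, and on the linear scale all 20 were below the other cells in the scattered members, Lyve1 at a ratio of 0.83. The clusters were built on these same genes, so this split is a description.

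**Figure D5:**
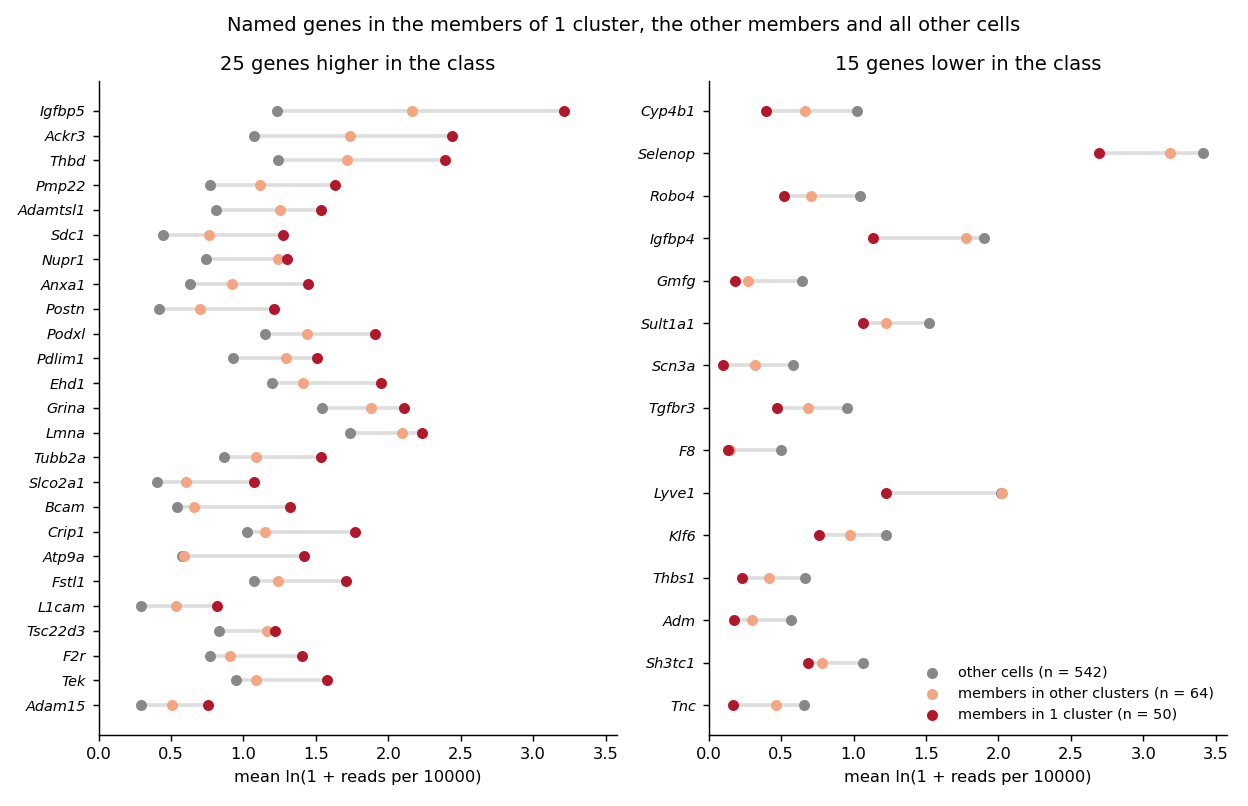
Mean natural log of 1 plus reads per 10000 (x axis) of the 25 genes named higher (left) and the 15 lower genes with the largest difference (right), for 50 members in 1 cluster, 64 members in other clusters and all other cells. Scattered members lie between the other cells and the clustered members for most genes, while for Lyve1 (2.03 and 2.02) they lie with the other cells.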

How the data were processed

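Single cells positive for CD31 and PDPN had been sorted into plates and made into Smart-seq3 libraries. According to the methods and the labels, the authors used STAR and the mm10 build, made counts with featureCounts (Subread), and filtered and normalised cells in Seurat (4.1.0 in the submitters' processing notes). The deposited values were natural log values of 1 plus reads per 10000, 23168 genes by 656 cells of 1152 labelled ones, and 496 cells were not analysed here. The methods name another log base, but the linear values summed to 10000 in each cell only with the natural log. Taking the smallest value above 0 in a cell as 1 read, 100% of values above 0 were whole reads within 0.01. Reads, not molecules, were counted, and how reads of several genes were handled is not given in the sources used here. No pair of cells was identical, no doublet caller was run on these sorted single cells, and no column was left without a group.

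Of the 656 cells, 114 were members, 150 precollecting-like, 139 Ptx3+ capillary-like, 117 Fndc1-type, 73 upstream-valve-like and 63 downstream-valve-like, and SDs are over these cells. Genes called were 431 higher and 446 lower against the 542 other cells, 988 and 812 against the Fndc1-type class, and 1006 and 1237 against the Ptx3+ capillary-like class. The class rule, its members and the gene lists were chosen with earlier results of these data known. Each class score was the mean z-score of its genes, and the 31 rule genes stayed out of all comparisons and lists. Ratios are of linear means per 10000 reads plus 0.1. The limit was 1.5-fold and detection in at least 10% of either group. Genes named were the 25 highest and 20 lowest by difference in mean natural log value against all other cells, the 10 highest and lowest against each of 2 classes, list members past the limit, and the 8 with the highest rho. One gene that the rule names is not reported here, but is part of the counts. List names are those of the deposited symbols, and 19 listed genes were not analysed here. Cells of at least 20000 reads (97 members and 471 others) were thinned to that depth for shares so marked, which left out 17 members and 71 others. Clustering used Seurat 5.3.0 in R 4.3.3, with 2000 variable genes, 15 principal components, and the lowest resolution, in steps of 0.1, that gave at least 5 clusters. Intervals are from scipy 1.17.1. Reading, thinning, scores and calls were tested on simulated data. Alternatives changed the markers, the score scale, depth, added constant, detection limit, margin, runs and clustering. Runs of 96 cell numbers are numbers only, since no label names a plate.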

Additional observations from a re-analysis of the deposited data

How the results depend on the processing

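No paired analysis was possible because the cells formed 1 pool and no test was made. The share of the class was 15.9% to 18.1% when a marker was left out, scores were ranked, limited to 3 or thinned, or cells were filtered, and 12.2% with a margin of at least 0.25. Of the members, 78.1% were kept with ranks, 83.3% without Stc1, 84.2% without Cd34 and 87.7% to 92.1% without the other markers. Shares of genes called depended most on the constant added to both means. With 1 read per 10000, 0.32% of genes were higher and 0.24% lower than in all other cells, 0.78% and 0.67% against the Fndc1-type class, and 1.40% and 1.39% against the Ptx3+ capillary-like class. With 0.01 they were 9.49% and 10.7%, 17.2% and 14.5%, and 16.1% and 19.2%. With detection in 25% of cells asked for, they were 3.94% and 3.47%, 9.08% and 7.24%, and 9.76% and 11.2%. With a margin of at least 0.25, 6.58% were lower than in all other cells. After thinning, 61.6% of the genes then higher and 49.9% of those lower were also called without it. Chosen after the data were seen, the 50 clustered members alone gave 7.90% higher and 10.1% lower, of which 32.9% and 29.5% were also called in the whole class. Also chosen then, leaving out 15 cells with markers of other cell types gave 4.45% and 4.59%, of which 85.7% and 88.9% were called with them, and all 45 genes named against the other cells kept their call. Averaged within runs, also added later, the difference in mean natural log value was 0.54 for Bcam and -0.45 for Sh3tc1, and moved less for the other 43. With 3000 variable genes, 60.5% of members fell in 1 cluster. Of the 45 named genes, 14 lost the 1.5-fold limit with 1 read per 10000 added and Lmna (1.45) after thinning, and none changed direction under these alternatives. The medians of the lymphatic identity, blood endothelial and capillary fatty acid lists changed sign under some alternatives, and the last ran from -0.30 to 0.06. Many genes were detected in few cells, so small ratios of low genes are not secured at this depth.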
